A study of Mus musculus with 5 samples.

Results

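The 9 genes described here write, maintain or remove methylation of cytosine in DNA: the methyltransferase genes Dnmt1, Dnmt3a and Dnmt3b, the cofactor genes Dnmt3l and Uhrf1, the dioxygenase genes Tet1, Tet2 and Tet3, and the glycosylase gene Tdg. They were chosen by symbol, by a rule that uses no measured value but with earlier results of these data known, and all 9 are among the 21408 gene models counted. The assay was global run-on sequencing (GRO-seq): nuclei are isolated, engaged RNA polymerases are allowed to elongate in the presence of Br-UTP, and an antibody against the bromine label pulls down the new RNA for sequencing. A read therefore reports a transcribing polymerase and its strand, and not stable RNA. Of the 5 mouse samples, 3 were embryonic stem cells (MESC) of the V6.5 line at passages 12 to 14, cultured with LIF on irradiated feeder cells, and 2 were embryonic fibroblasts (MEF) at passage 2, prepared from male E13.5 embryos and cultured without LIF. Both come from a cross of C57Bl/6(f) with 129/Sv(m), and the labels give no transgene, deletion or drug for any sample. The deposited reads of each cell type were pooled, so every difference is between 2 read sets, MESC with 8616592 reads and MEF with 6583644. No spread between replicates can be had and no test between the cell types was made. Intervals are exact 95% intervals for counting error only, and since reads carry no molecular identifier, several can stem from 1 molecule. The purpose of setting the cell types side by side is to see where engaged polymerase differs between a pluripotent and a differentiated cell.

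DNA methylation in mammals sits mostly at CpG, a cytosine followed by a guanine. Dnmt1 copies it onto the new strand after replication, guided by Uhrf1, which binds hemimethylated sites. Dnmt3a and Dnmt3b methylate unmodified sites, and Dnmt3l, which has no catalytic activity of its own, binds and stimulates them. Tet enzymes oxidise methylcytosine to hydroxymethylcytosine and further products, and Tdg excises the most oxidised forms so that base excision repair can restore cytosine. Embryonic stem cells are known for high activity of both the de novo methyltransferases and Tet1, and for a short form of Dnmt3a made from an internal promoter.

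The labels were checked against markers: all 5 pluripotency genes of a list led by Pou5f1 and Nanog passed a 4-fold mark towards MESC, with a summed gene body density of 37.8 RPKM (read density per kilobase, scaled to the library's total outside the mitochondrial genome) against 0.172 in MEF, where 3 of the 5 had no read. All 5 fibroblast genes, among them Col1a1 and Thy1, passed it towards MEF, and their summed density in MESC, 1.63 RPKM, was 1.81% of the 90.4 RPKM in MEF. Feeder cells are fibroblasts, and their part in the MESC values of the 9 genes was not tested. Of 4 macrophage genes, 2 had enough reads and both were higher in MEF, with a summed density of 2.37 RPKM against 0.0475 in MESC. Other lists had more reads in MESC: all 3 epithelial genes were called towards MESC (7.37 against 0.278 RPKM summed), as were both neural genes with a model, Stmn2 (9.20-fold) and Elavl3 (4.76-fold). Of 4 endothelial genes 2 had enough reads and 0 were called, with Pecam1 3.04-fold higher in MESC. Reads of a list do not by themselves show that cells of that type were present. The part of any such cells in the values of the 9 genes was not tested. In pooled cultures, fewer transcribing cells and less transcription per cell cannot be told apart.

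The following 6 stretches of the mm9 genome precede 6 of the starts described below, each being the 200 bases just before an annotated transcript start. They are shown because read counts of the 2 cell types differed at or after these starts, with the exception of the long Dnmt3a start, which serves as the counterpart of the internal one. Each reads 5′ to 3′ on the gene's strand, with every CpG in capitals.
Dnmt3a long start (chr12:3806830-3807029, plus strand): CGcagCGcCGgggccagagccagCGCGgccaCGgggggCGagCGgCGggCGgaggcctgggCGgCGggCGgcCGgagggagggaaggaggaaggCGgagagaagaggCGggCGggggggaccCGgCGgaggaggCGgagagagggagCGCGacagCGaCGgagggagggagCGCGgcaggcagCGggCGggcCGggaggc
Dnmt3a internal start (chr12:3891528-3891727, plus strand): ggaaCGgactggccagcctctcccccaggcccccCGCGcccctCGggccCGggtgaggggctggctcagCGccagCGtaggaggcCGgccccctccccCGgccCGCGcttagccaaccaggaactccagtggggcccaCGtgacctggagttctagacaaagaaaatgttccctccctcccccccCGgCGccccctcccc
Dnmt3b start (chr2:153474986-153475185, plus strand): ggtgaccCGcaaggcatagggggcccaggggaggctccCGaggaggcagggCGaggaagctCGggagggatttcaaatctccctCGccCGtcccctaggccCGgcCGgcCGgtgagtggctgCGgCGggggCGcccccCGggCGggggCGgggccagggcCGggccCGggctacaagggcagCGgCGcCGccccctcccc
Dnmt3l upstream internal start (chr10:77512387-77512586, plus strand): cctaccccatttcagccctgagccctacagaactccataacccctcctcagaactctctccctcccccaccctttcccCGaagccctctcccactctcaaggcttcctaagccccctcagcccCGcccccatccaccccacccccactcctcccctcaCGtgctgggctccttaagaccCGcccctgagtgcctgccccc
Dnmt3l downstream internal start (chr10:77517380-77517579, plus strand): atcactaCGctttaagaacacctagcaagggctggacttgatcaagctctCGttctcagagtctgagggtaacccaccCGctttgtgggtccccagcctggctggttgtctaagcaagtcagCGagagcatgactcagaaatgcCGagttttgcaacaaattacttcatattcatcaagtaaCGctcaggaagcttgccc
Tet2 start (chr3:133207355-133207554, minus strand): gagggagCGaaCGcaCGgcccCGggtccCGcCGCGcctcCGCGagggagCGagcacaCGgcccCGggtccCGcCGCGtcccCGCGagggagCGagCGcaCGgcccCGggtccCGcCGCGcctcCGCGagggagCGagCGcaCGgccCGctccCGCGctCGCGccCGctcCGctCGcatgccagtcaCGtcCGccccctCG
None of the 6 overlaps an annotated exon. The stretch before the Tet3 start, with 14 CpG, does overlap one, of the divergent gene B230319C09Rik, and is not printed. The Tet2 stretch held 40 CpG and was 82.5% G or C, and its CpG count was at the 99.9th percentile of the same window before the first starts of all 21408 models, whose median was 8. The long Dnmt3a start held 29 CpG, the Dnmt3b start 20 and the internal Dnmt3a start 14. The Dnmt3l stretches held fewer, 4 before the upstream and 6 before the downstream internal start. The GC box GGGCGG, searched on both strands, occurred 5 times before the long Dnmt3a start, 3 times before the Dnmt3b start and 2 times before the upstream internal Dnmt3l start, and 39.3% of all first starts held at least 1. The octamer ATGCAAAT, present in 1.21% of them, was found before none of the members' starts. These matches describe letters only.

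Gene body reads, counted on the sense strand from 1000 bp after the start of the longest transcript to the gene end, separated 3 of the 9 genes by at least 4-fold, all higher in MESC: Dnmt3b, Dnmt3l and Tet1. None of the 9 was at least 4-fold higher in MEF. Of all 10676 bodies that had 50 reads or more in either library, 7.93% passed the 4-fold mark towards MESC and 5.6% towards MEF. The median log2 ratio of MESC over MEF was 0.18 over the 9 genes and 0.29 over all bodies, so a value of 0 here lies below the typical gene. Scaling both libraries by that median would lower each log2 ratio by 0.29. The order of densities differed between the cell types. In MESC, Dnmt3b was the highest of the 9 at 3.74 RPKM, followed by Uhrf1, Tet1 and Dnmt1 between 2.64 and 2.16 RPKM, where the intervals of neighbours overlapped. Tdg followed at 1.56 RPKM and Dnmt3l at 1.08, and Dnmt3a, Tet3 and Tet2 were lowest at 0.818, 0.654 and 0.531 RPKM with intervals that did not overlap. In MEF, Dnmt1 came first at 2.20 RPKM, followed by Uhrf1 at 1.78, Tet3 at 1.46 and Tdg at 1.38. The intervals of Uhrf1, Tet3 and Tdg overlapped. Dnmt3a lay at 0.855 RPKM and Tet2 at 0.565. The 3 lowest in MEF were the 3 genes called higher in MESC, at 0.280 RPKM for Tet1, 0.225 for Dnmt3l and 0.151 for Dnmt3b. Among them the intervals of neighbours overlapped.

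**Figure D1:**
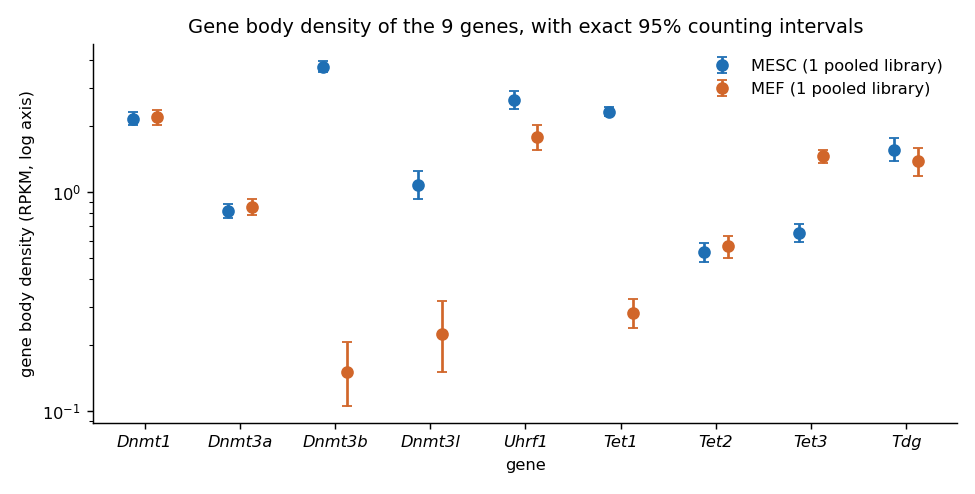
Gene body density in RPKM on a log axis for the 9 genes in the MESC and MEF read sets; points are the densities and bars the exact 95% counting intervals. Dnmt3b, Dnmt3l and Tet1 lie far higher in MESC, Tet3 lies higher in MEF, and the pairs of Dnmt1, Dnmt3a, Tet2 and Tdg overlap.

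Dnmt3b (ENSMUSG00000027478.9, chromosome 2, 153475186 to 153513466, plus strand), which encodes a de novo methyltransferase, had the widest difference. It had 1194 body reads in MESC and 37 in MEF, a ratio of 24.7 (17.8 to 35.3) and a log2 ratio of 4.63, at the 98.8th percentile of all bodies. The difference held from end to end: before and after the internal annotated start at 153491538 the MESC over MEF ratio was 24.3 (14.6 to 43.7) and 25.7 (16.7 to 41.7). In the first 1300 bp after the start there were 98 reads in MESC and 9 in MEF, which is 8.35 times the MEF density (4.22 to 18.8). The promoter window, from 50 bp before to 300 bp after the start, held 10 reads in MESC and 3 in MEF, too few for a comparison. The start of a retained-intron transcript inside the gene, at 153495106, had 17 reads in MESC and 0 in MEF, inside a body with few MEF reads throughout.

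Dnmt3l (ENSMUSG00000000730.7, chromosome 10, 77505032 to 77526367, plus strand) had 188 body reads in MESC and 30 in MEF. Its density was 4.80-fold higher in MESC (3.26 to 7.32), with a log2 ratio of 2.26. The interval reaches below 4, and the 4-fold call did not hold with the libraries scaled by the median ratio (log2 ratio 1.97), with TMM factors (2.00) or with the 36-base MESC reads alone (1.78). The reads of the 2 libraries began in different parts of the gene. All 30 MEF body reads lay from the downstream internal start at 77517580 onward. In the 11888 bp of body before that start MESC had 93 reads and MEF none. With 3 reads standing for 0 this is 23.8-fold higher in MESC, and the lower limit of the exact interval is 18.9. In the first 1000 bp after it the counts were 10 in MESC and 13 in MEF, a MEF density 1.70-fold that of MESC with an interval that spans equality (0.687 to 4.32). Beyond that kilobase MESC was again higher, 85 reads against 17 (3.83-fold, 2.26 to 6.88).

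In MESC the Dnmt3l signal was patchy in the 5′ part of the gene. After an empty first stretch, 20 reads lay from 1500 to 2500 bp after the most upstream start, and only 7 in the following 5395 bp, up to the upstream internal start. After the upstream internal start at 77512587, where the coding transcripts Dnmt3l-002 and Dnmt3l-003 begin, body density was 2.90 times that before it (1.91 to 4.55, both within the MESC library). The first 4900 bp after this start held 65 MESC reads and no MEF read, and the 1500 bp before it held 17 MESC reads and no MEF read on the opposite strand. At the start itself there were 6 reads in MESC and 0 in MEF. A start slightly further downstream, at 77518080, from which 3 coding transcripts begin, had 1 read in MESC and 7 in MEF (9.13-fold higher in MEF, 1.17 to 412, or 3.04-fold with 3 reads standing for 1). The window at the gene's long start was empty in both libraries. With windows this thin, the position of the reads is described here and not a choice of promoter. Several of these windows were set after the read profile had been seen.

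**Figure D2:**
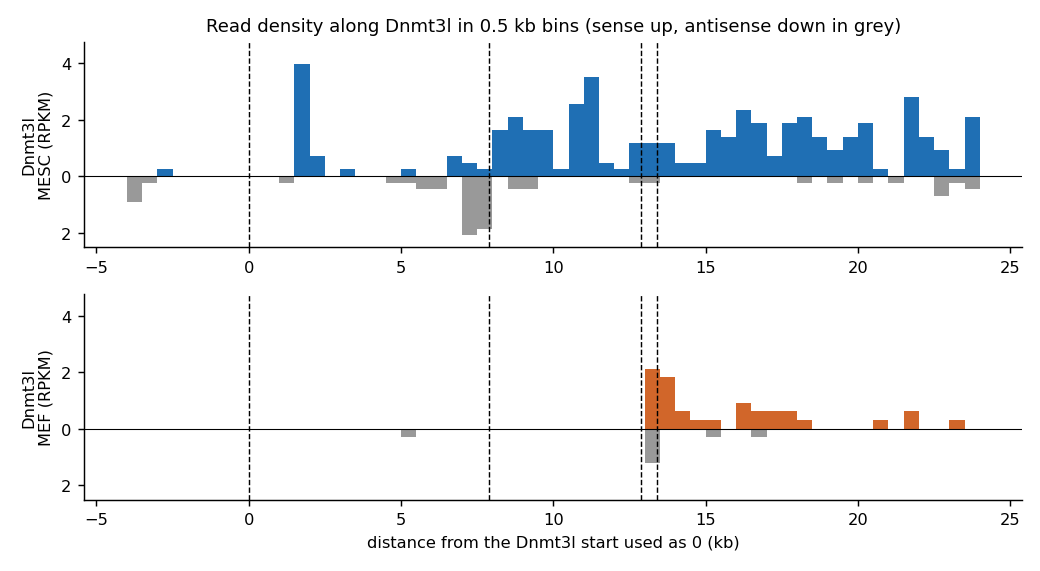
Read density in RPKM along Dnmt3l in MESC and MEF, sense reads upward and antisense reads downward, against distance in kb, with dashed lines at annotated starts. MESC signal is patchy in the 5′ part and denser from the upstream internal start, and the 30 MEF body reads lie from the downstream internal start onward.

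Dnmt3a (ENSMUSG00000020661.9, chromosome 12, 3807030 to 3914443, plus strand), the other de novo methyltransferase gene, had similar densities in the 2 libraries over its whole body. It had 746 reads in MESC and 598 in MEF, with densities of 0.818 and 0.855 RPKM and a ratio of 0.956 (0.858 to 1.07). This sum covered 2 opposite differences. Over the 84721 bp before the internal start at 3891728, where Dnmt3a-005 and Dnmt3a-201 begin, MESC had 326 reads and MEF 444, so that MEF was 1.78-fold higher (1.54 to 2.06). Over the last 21716 bp, from 1000 bp after that start to the gene end, MESC had 372 reads and MEF 148, and MESC was 1.93-fold higher (1.59 to 2.35). Mean density after this point was 4.45 times that before it in MESC (3.83 to 5.18) and 1.30 times in MEF (1.07 to 1.57). The rise was not all at the start: density was 0.412 RPKM in MESC and 0.548 in MEF over the 15000 bp before it, 1.17 and 0.609 from 1000 to 16000 bp after it, and 3.84 and 1.99 from there to the gene end.

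The ratio of the 2 steps of Dnmt3a was 3.42, at the 97.9th percentile of 10420 internal starts in all genes and below the 4-fold mark. Steps at least 4-fold apart were found at 3.75% of those starts, 1.53% with the larger step in MESC and 2.23% in MEF. Of the 24 internal starts of the 9 genes with enough reads, 0 had such steps. These 24 are not separate units, since many are Dnmt3a starts whose stretches share reads. The downstream internal Dnmt3l start at 77517580 was left out, with 17 MEF reads and a minimum of 20. With 3 reads standing for 0, its ratio of steps was 0.161, with the larger step in MEF. The Dnmt3a step does not by itself single out the start at 3891728. The neighbouring internal start at 3885449 gave a ratio of 3.66. The steps themselves were larger at the last internal start, at 3906816, with 6.23 in MESC and 2.58 in MEF. The reads close by did differ in place. The kilobase before the internal start at 3891728 had 1 read in MESC and 3 in MEF, and the kilobase after it 48 in MESC and 8 in MEF, 4.60-fold higher in MESC (2.16 to 11.3). On the opposite strand the 2500 bp before it held 42 reads in MESC and 7 in MEF (4.60-fold, 2.05 to 12.1). The start window itself had 17 reads in MESC and 1 in MEF, just under the minimum of 20. In the 15000 bp before the start there were 53 reads in MESC and 54 in MEF, a ratio of 0.752 whose interval spans equality (0.505 to 1.12), so the MEF excess of the whole 5′ part was not clear there. From 1000 to 16000 bp after the start the ratio was 1.93 (1.42 to 2.65). From there to the gene end it was 1.93 again (1.50 to 2.49), but not evenly. Counted from the long start, the 2000 bp bin from 102000 bp had 116 reads in MESC and 21 in MEF, at 6.77 and 1.60 RPKM. The bin from 104000 bp had 59 and 32. The bin from 106000 bp, which crosses the gene end, had 21 and 31, with MEF the higher. The mean densities and steps after the internal start include this MESC peak, and its part in them was not tested. At the long start the window had no read in either library, and the first 4000 bp held 19 reads in MESC and 24 in MEF.

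**Figure D3:**
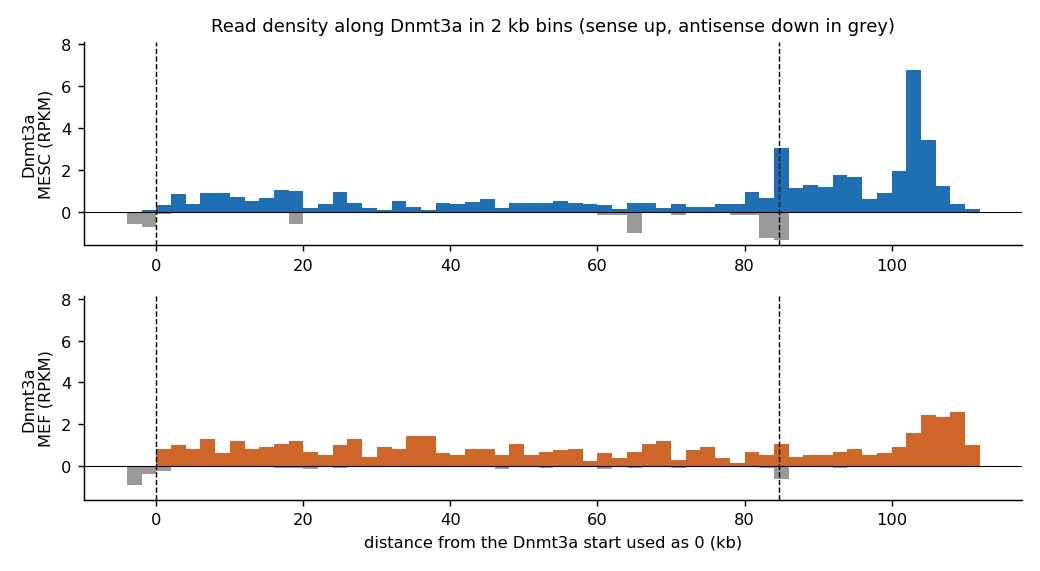
Read density in RPKM along Dnmt3a in MESC and MEF, sense reads upward and antisense reads downward, against distance in kb, with dashed lines at annotated starts. In mean density, MEF is the higher over the long 5′ part and MESC over the last 21716 bp. Single bins depart from this, and sense and antisense reads flank the internal start in MESC.

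The maintenance genes were less than 2-fold apart. Dnmt1 (ENSMUSG00000004099.8, chromosome 9, 20711650 to 20757317, minus strand) had 827 body reads in MESC and 646 in MEF, at 2.16 and 2.20 RPKM, with a ratio of 0.981 (0.884 to 1.09). Its first 2000 bp held 39 reads in MESC and 47 in MEF (1.57-fold higher in MEF, 1.01 to 2.47), while the kilobase before the start held 27 and 7 reads on the opposite strand (2.96-fold higher in MESC, 1.26 to 8.04). The annotated promoter window had 3 reads in each. Just beyond that window, from 300 to 400 bp after the start, there were 9 reads in MESC and 14 in MEF. These are 10.5 and 21.3 RPKM, and the interval of their ratio spans equality (0.188 to 1.22). Uhrf1 (ENSMUSG00000001228.8, chromosome 17, 56442744 to 56462909, plus strand) had 433 body reads in MESC and 224 in MEF, a 1.48-fold higher density in MESC (1.26 to 1.75) and a log2 ratio of 0.57, above the median of all bodies. Its annotated first start had 2 reads in each library. More reads lay near the later starts, with 10 in MESC and 7 in MEF at 56443736 and 23 and 16 at 56452086, where a retained-intron transcript begins.

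Tet1 (ENSMUSG00000047146.8, chromosome 10, 62267325 to 62361866, minus strand) was the dioxygenase gene with the wide difference. It had 1867 body reads in MESC and 172 in MEF, 8.32-fold higher in MESC (7.11 to 9.79), with a log2 ratio of 3.06 at the 95.8th percentile. The ratio was alike before and after the later start at 62342762, where the coding transcripts Tet1-201 and Tet1-202 begin, 7.99 (5.77 to 11.4) and 8.35 (6.97 to 10.1), and density did not step up there in either library. The first start had 1 read in MESC and 0 in MEF in its window and the later start 6 and 0. Instead the MESC reads thickened between them, where no Tet1 start is annotated. Counted from the first start, the first 5000 bp held 21 reads in MESC and 2 in MEF, and the next stretch, to 11000 bp, 112 and 5. From 11000 to 13000 bp there were 105 reads in MESC and 22 in MEF, at 6.13 and 1.67 RPKM, and here the ratio was lower, 3.66 (2.29 to 6.09). Antisense reads from 12000 to 15000 bp numbered 36 and 7. A U6 gene inside Tet1 on the same strand was masked and held no read in either library. At the last annotated start, 62277289, the MESC over MEF ratio was 7.77 before it (6.59 to 9.21). After it the ratio was 14.1 (8.27 to 26.2), with 14 MEF reads. Mean density after this last start was 1.51 times that before it in MESC (1.32 to 1.72) and 0.831 times in MEF (0.444 to 1.44).

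Tet3 (ENSMUSG00000034832.8, chromosome 6, 83312367 to 83391669, minus strand) went the other way. It had 439 body reads in MESC and 749 in MEF, 2.23-fold higher in MEF (1.98 to 2.51), with a log2 ratio of -1.15, lower than in all but 11.1% of bodies. Its promoter window held 9 reads in MESC and 29 in MEF, 4.20-fold higher in MEF (1.94 to 10.1), and the first kilobase 34 and 78 (2.99-fold, 1.98 to 4.62). Transcription on the Tet3 strand also lay upstream of every annotated start. The 15950 bp that end 51 bp before the start held 170 reads in MESC and 209 in MEF, 1.60-fold higher in MEF (1.30 to 1.98), at 1.24 and 1.99 RPKM, above the density of the Tet3 body in each library. Between 26000 and 17000 bp before the start there were 2 and 4 reads, so the upstream signal had an edge of its own. A short internal start at 83329896, where Tet3-201 begins, had 1 read in MESC and 3 in MEF. The MEF excess was larger before this start (2.56-fold, 2.22 to 2.95) than after it (1.52-fold, 1.21 to 1.93). Mean density after it was 1.71 times that before it in MESC (1.38 to 2.10) and 1.02 times in MEF (0.849 to 1.21). The MESC rise did not hold from this start onward. In bins of 2 kb counted from the first start, the bin from 62000 bp had 0.992 RPKM in MESC and 2.66 in MEF. From 64000 to 74000 bp, MESC bins had 0.467 to 0.642 RPKM, beside 0.566 before the internal start. The bins from 74000 and 76000 bp, near the gene end, had 1.46 and 2.28 RPKM in MESC and 1.29 and 1.52 in MEF.

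**Figure D4:**
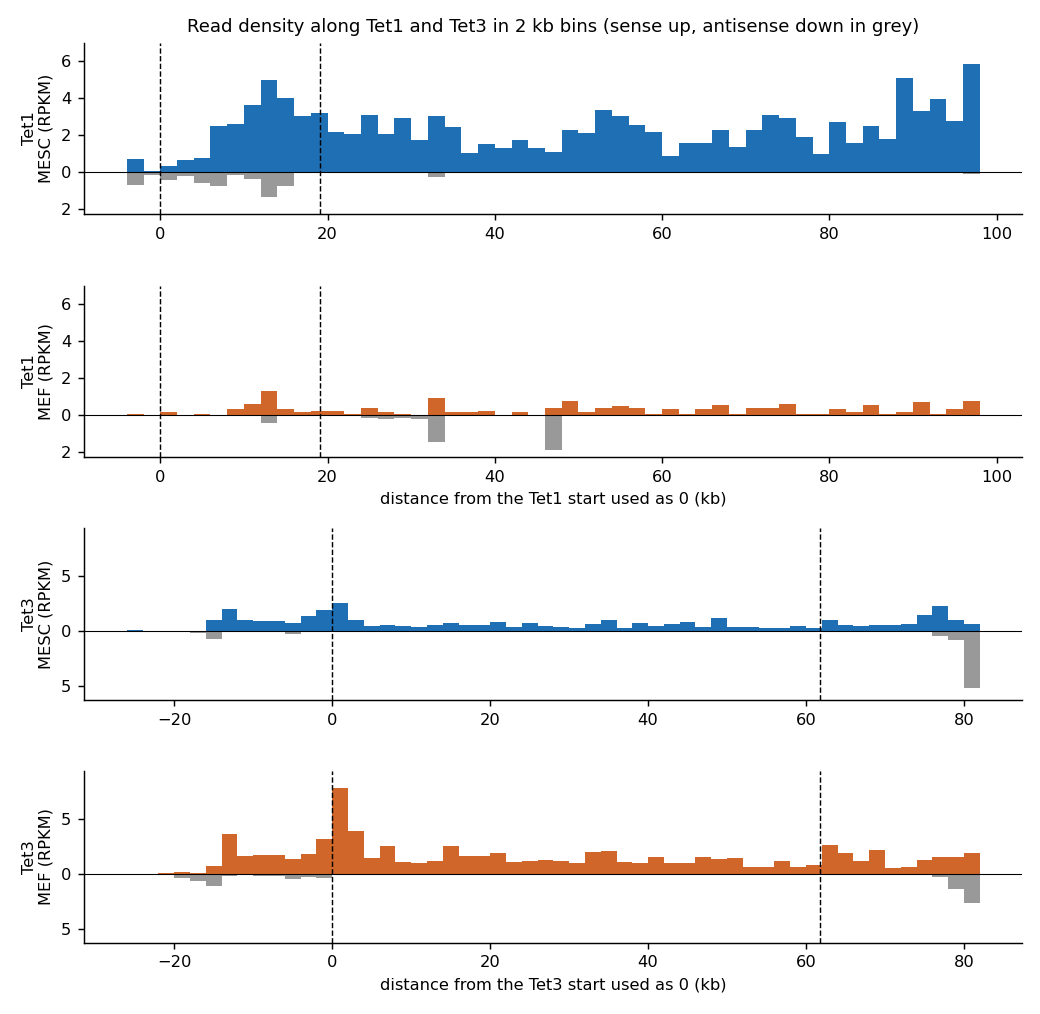
Read density in RPKM along Tet1 and Tet3 in MESC and MEF in bins of 2 kb, sense reads upward and antisense reads downward in grey, against distance in kb from the first start, with dashed lines at that start and a later one. In Tet1 the MESC density climbs between these starts, and in Tet3 reads on the gene's strand cover the stretch upstream of the start in both cell types.

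Tet2 (ENSMUSG00000040943.7, chromosome 3, 133126643 to 133207354, minus strand) showed a difference at its start and not in its body. Body reads numbered 363 in MESC and 296 in MEF, at 0.531 and 0.565 RPKM, with a ratio of 0.940 (0.804 to 1.10). The promoter window held 27 reads in MESC and 61 in MEF, 2.95-fold higher in MEF (1.84 to 4.82) and under the 4-fold mark. Nearly all of these lay in the first 200 bp, with 27 reads at 20 distinct positions in MESC and 58 reads at 32 positions in MEF. The pausing index, promoter density over body density, was 16.9 in MESC (11 to 25) and 46.8 in MEF (34.9 to 61.8), against medians of 3.89 and 3.69 over active genes. Within each library the promoter excess passed a one-sided exact binomial test, with Benjamini-Hochberg adjusted p = 9.57e-23 in MESC and 6.73e-74 in MEF. The indices of the 2 libraries were not tested against each other. The kilobase before the start, which contains the CpG-dense stretch printed above, held 2 antisense reads in each library.

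**Figure D5:**
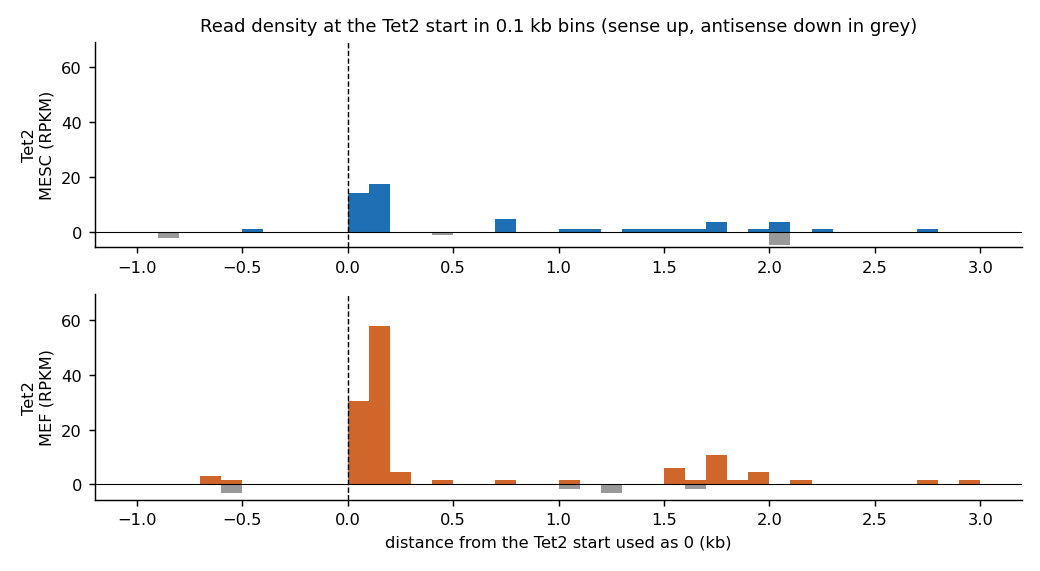
Read density in RPKM in bins of 0.1 kb around the Tet2 start in MESC and MEF, sense reads upward and antisense reads downward in grey, against distance in kb. Reads gather in the first 200 bp in both, 27 in MESC and 58 in MEF, and little antisense signal is seen.

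Tdg (ENSMUSG00000034674.11, chromosome 10, 82092604 to 82113544, plus strand) had 267 body reads in MESC and 181 in MEF, at 1.56 and 1.38 RPKM, with a ratio of 1.13 (0.933 to 1.37). Its most-read start was not the annotated first start, which had 0 reads in MESC and 3 in MEF, but that of Tdg-004 at 82093412, with 34 and 40. Around it, from 300 to 1500 bp after the first start, the libraries had 105 and 91 reads, and the kilobase before the first start had 95 and 98 on the opposite strand. The divergent pattern was therefore present in both cell types. The kilobase of antisense reads gave a MEF density 1.35-fold that of MESC (1.00 to 1.80).

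Across the 9 genes, reads near annotated starts were scarce. Only Tet2 and Tet3 reached 20 promoter reads in 1 library, and 1 of them, Tet3, was at least 4-fold apart, towards MEF. Over all 4719 promoters the share was 9.05%, made of 6.06% towards MESC and 2.99% towards MEF. The other 7 genes were under that minimum. The Tet3 promoter was not called with each position counted once or with the wider window, from 100 bp before to 500 bp after the start, and with the 36-base MESC reads alone Tet2 was called in its place. After starts of a gene within 300 bp were merged, the genes had 40 annotated starts, of which 4 reached 20 reads and 1, again that of Tet3, was at least 4-fold higher in MEF (4.57-fold, 2.03 to 11.6, with 8 and 28 reads), against 11.2% of 6004 starts, 7.28% towards MESC and 3.93% towards MEF. By the pausing index, 2 of the 9 genes were paused in MESC, Tet2 and Tet3, where 56.1% of 14224 active genes were, and 3 in MEF, Tet2, Tet3 and Dnmt3b, against 52.3% of 13435. The Tet3 index was 4.57 in MESC (2.08 to 8.76, adjusted p = 0.000504 by the exact binomial test) and 8.64 in MEF (5.74 to 12.5, adjusted p = 7.78e-17). On the same strand, the 2 kb before the Tet3 start had 1.93 RPKM in MESC and 3.20 in MEF. The promoter window had 2.99 and 12.6 RPKM. The part of this upstream transcription in the index was not tested. The MEF call for Dnmt3b rests on 3 promoter reads beside 37 body reads (index 8.61, 1.70 to 27.2, exact binomial adjusted p = 0.0131). At the annotated start with the most reads instead, the counts were 5 in MESC and 6 in MEF, where 64.3% of 14149 and 60.3% of 13354 active genes were paused. Tet2, Tet3, Uhrf1 and Tdg were then paused in both, Dnmt3a in MESC, and Dnmt3l and Tet1 in MEF, and Dnmt3b was no longer paused in MEF. These starts were chosen for the most reads over both libraries, so the choice itself favoured an excess there. The MEF call for Tet1 rests on 5 reads at 62277289, 84577 bp after the first start, beside 14 body reads. That for Dnmt3l rests on 7 beside 15. The Uhrf1 start is that of a retained-intron transcript, 9342 bp after the first start.

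Read density past the annotated gene end, relative to the body, varied among the 9 genes. Over all genes with enough body reads, its median was 1.71 times the body density in MESC and 1.68 times in MEF. Uhrf1 had 257 reads in MESC and 161 in MEF in the 2000 bp past its end, a density 5.69 times (4.86 to 6.65) and 6.89 times (5.59 to 8.47) that of its body, in a gap of 2576 bp before Kdm4b on the same strand. Dnmt3b had 258 reads there in MESC and 7 in MEF, 4.03 times (3.51 to 4.61) and 3.53 times (1.33 to 8.01) its body density. Dnmt3a had 10 reads in MESC and 32 in MEF, 0.713 times (0.341 to 1.32) and 2.85 times (1.93 to 4.06) the body density. A past-end density of at least 2 times the body was found for 4 of 9 genes in MESC, where 41.1% of 9447 genes with enough body reads had it. In MEF it was found for 4 of 7, against 39.8% of 8223. Dnmt3b and Dnmt3l, with 37 and 30 MEF body reads, were under the minimum of 50 and are not among the 7.

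Of the wider machinery, 46 further genes were listed by role, 44 had a model and 37 had enough body reads. Among these 37, 1 gene, Neil2, a glycosylase of base excision repair, was at least 4-fold higher in MESC (58 reads against 4, 11.1-fold, 4.12 to 42.2), and 0 were at least 4-fold higher in MEF. Their median log2 ratio was 0.32, beside 0.29 over all bodies. Among 11 maintenance and chromatin partners (median 0.30), Hells, a chromatin remodeller needed for normal DNA methylation, was the highest in MESC at 3.72-fold (3.28 to 4.23), and Uhrf2, the relative of Uhrf1, was at the other end, 1.40-fold higher in MEF (1.27 to 1.53). Among 7 readers of methylated DNA (median -0.16), Mbd4, which is also a glycosylase, was 3.48-fold higher in MESC (2.40 to 5.18), while Zbtb4 was 1.92-fold higher in MEF (1.55 to 2.38). The 8 base excision repair genes had a median of 0.92, from Neil2 down to Neil3, with 104 and 85 reads. Among 6 partners and modulators of the Tet enzymes (median -0.42), Gadd45a was 2.96-fold higher in MESC (1.66 to 5.63) and its relative Gadd45b 1.85-fold higher in MEF (1.28 to 2.68). In the methyl donor cycle, 5 genes with a median of 0.37, Ahcy, which clears the by-product of methylation, was 3.34-fold higher in MESC (2.70 to 4.16).

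The genes whose pair of body densities lay closest to those of the 3 separated members were found over the 2 read sets, as the distance between log2 densities with 0.05 RPKM added. For Dnmt3b they were Cdh1, Slc7a7 and Gm17561, at distances of 0.272, 0.287 and 0.434. For Dnmt3l they were Gm13778, Ppp1r1a and Icam1, at 0.00698, 0.0235 and 0.0402. For Tet1 they were Zdbf2, Il17rd and Alg13, at 0.0877, 0.116 and 0.135. A distance over 2 points describes a pair of levels and no more.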

How the data were processed

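Per the file headers, the authors pooled the libraries of each cell type. Per the series design text, the alignment was made with Eland on mm9, followed by removal of reads in rRNA-like regions. The handling of reads with several matches is not given in the sources used here, and mappability was not measured. The deposited files list 1 aligned read per line with a value of 1, and were used as raw read counts with no normalization. Separate samples cannot be recovered from them, and samples were grouped by their titles.

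Listed positions were checked against NCBIM37 (mm9): taking each listed position for the 5′ base, 93.0% of a MESC sample (every 400th read) and 95.5% of a MEF sample had at most 2 mismatches. Distinct positions made up 74.4% and 71.3% of reads. Read length was 35 or 36 bases in MESC and 35 in MEF. Loci similar to ribosomal DNA still held 11.6% and 16.4% of reads.

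Reads were counted by 5′ end and strand with Python 3.11.15 and pysam 0.24.0. Gene models were the longest transcripts of at least 2000 bp in the annotation given for NCBIM37. Models overlapped by another gene of the same strand over at least 5% of their length were left out, and smaller overlaps were masked, which keeps Tet1. Density was RPKM over reads outside the mitochondrial genome. Ratios have exact conditional Clopper-Pearson 95% intervals. A ratio of at least 4 was called, with 3 reads standing for any lower count, from at least 50 body reads or 20 start reads in 1 library. Pausing was tested within each library by a one-sided exact binomial test with Benjamini-Hochberg adjustment over all active genes, and called at an index of at least 2 and adjusted p under 0.05. The counting was tested on simulated data. Alternatives were another scaling (median ratio, or TMM from edgeR 4.0.16), thinning, each position counted once, read length, window, read minimum and start.

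The genes named are the 9 members, the pathway genes at least 4-fold apart, the highest and lowest of each list, and the 3 nearest genes of the separated members. A gene that this rule names is not reported here. Members and lists were chosen with earlier results of these data known, and the windows within Dnmt3a, Dnmt3l, Tet1, Tet3 and around starts were set after the read profiles had been seen.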

Additional observations from a re-analysis of the deposited data

How the results depend on the processing

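No paired analysis was possible because each cell type is 1 pooled read set, and for the same reason no replicate could be left out. In the gene body, the count of genes at least 4-fold apart was 3 or 2 under every alternative; it was 2, without Dnmt3l, with the median ratio, TMM factors, 36-base MESC reads and a minimum of 200 reads. Dnmt3b and Tet1 were called under each alternative, with log2 ratios of 4.34 to 4.85 and 2.77 to 3.82, and Tet3 ran from -1.44 to -1.13. For Dnmt1, Dnmt3a, Tet2 and Tdg the sign differed between alternatives, so no direction is given. At the promoter the count fell from 1 to 0 with each position counted once, with the wider window and with a minimum of 50 reads. Among starts it fell to 0 with each position counted once and with a minimum of 50 reads, and with no minimum it was 3. Paused genes rose from 2 to 5 in MESC and from 3 to 6 in MEF at the most-read start, which was itself chosen by its reads. With the wider window they were 3 in MESC and 4 in MEF, with Tdg added in both. The ratio of steps at the internal Dnmt3a start ran from 2.89 with 36-base MESC reads to 3.99 with 35-base ones. The causes were not tested. Depth limits the start windows: 36 of the 40 starts had under 20 reads in both libraries.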

Other observations

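Within Tet1, where sense reads were far more frequent in MESC, MEF had clusters of antisense reads. From 46000 to 48000 bp after the first start (chromosome 10, 62313867 to 62315866), 25 antisense reads at 21 distinct positions stood against 1 in MESC (32.6-fold higher in MEF, 5.34 to 1339, or 10.9-fold with 3 reads standing for 1), while sense reads numbered 19 in MESC and 5 in MEF. From 32000 to 34000 bp there were 19 antisense reads in MEF and 5 in MESC (4.96-fold, 1.79 to 17). Both windows were chosen after the profile had been seen.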
